A study of Mus musculus with 8 samples.

Results

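The T-lineage transcription factors described here are 10 genes, chosen by symbol and not by their values: Tcf7, Lef1, Gata3, Bcl11b, Runx1, Tcf3, Tcf12, Ikzf1, Ets1 and Myb. All 10 were found among the 16538 genes of the deposited table, and all 10 had a mean of at least 1 RPKM (reads on a gene scaled to gene length and sequencing depth), the minimum for entering the test. RNA was sequenced from sorted DN3 thymocytes, the lineage-negative CD4- CD8- CD44- CD25+ cells in which the T cell receptor β chain is rearranged and selected. The 4 control libraries came from Sel1l flox/flox mice and the 4 Sel1l CKO libraries from Sel1l flox/flox mice that also carried an hCD2-driven iCre, active from the earliest thymic T cell precursors on. All mice were C57BL/6 and 6 weeks old, so that both groups carried the floxed alleles and only the CKO group carried the recombinase. Cre-positive mice without floxed Sel1l are not part of this comparison, so effects of iCre itself and of the loss of Sel1l cannot be told apart. Sel1l encodes an adaptor of the HRD1 complex, which takes misfolded proteins from the endoplasmic reticulum for degradation.

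As background, T cell identity is laid down in the thymus by a small set of DNA-binding proteins that act under Notch signaling. TCF-1 (Tcf7) and GATA3 are switched on in the earliest thymic progenitors, BCL11B follows at commitment and shuts off progenitor programs, and RUNX1, MYB, Ikaros (Ikzf1) and ETS1 act with them across early thymocyte stages. The E proteins E2A (Tcf3) and HEB (Tcf12) drive the genes of receptor rearrangement, hold DN3 cells at the β-selection checkpoint, and are themselves held in check by Id proteins, which dimerize with them and cannot bind DNA.

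None of the 10 factors passed the test between genotypes. Bcl11b and Ets1 were lower in every Sel1l CKO library than in every control library, Runx1 and Myb were lower on average with overlapping groups, and Tcf7, Gata3, Tcf3 and Ikzf1 had CKO means at 106% to 110% of their control means. The largest difference was that of Bcl11b, at 76.7% of the control mean.

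The windows upstream of the 3 factors with the most negative fold changes, Bcl11b, Runx1 and Myb, are printed here because the data show these genes side by side and a reader can see how unlike their start sites are. The sequences are from RefSeq (GRCm38.p6) and run 5′ to 3′ on the strand of the gene, up to the first annotated exon base where a window runs into an exon. Capitals mark the letters of a searched motif. The Bcl11b stretch lies at chr12:108003603-108003664, the Runx1 distal window at chr16:92826150-92826324, the Runx1 proximal window at chr16:92697330-92697579 and the Myb window at chr10:21160985-21161234, all on the minus strand.
Bcl11b: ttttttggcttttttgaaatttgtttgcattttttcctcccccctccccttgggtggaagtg
Runx1 distal: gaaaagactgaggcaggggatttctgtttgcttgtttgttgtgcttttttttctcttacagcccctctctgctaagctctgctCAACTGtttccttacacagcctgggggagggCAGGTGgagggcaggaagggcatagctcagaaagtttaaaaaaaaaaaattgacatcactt
Runx1 proximal: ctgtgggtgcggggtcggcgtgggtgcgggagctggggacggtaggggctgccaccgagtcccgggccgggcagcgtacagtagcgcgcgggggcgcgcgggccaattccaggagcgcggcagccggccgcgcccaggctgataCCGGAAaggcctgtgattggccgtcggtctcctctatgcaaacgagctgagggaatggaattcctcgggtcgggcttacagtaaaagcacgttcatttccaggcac
Myb: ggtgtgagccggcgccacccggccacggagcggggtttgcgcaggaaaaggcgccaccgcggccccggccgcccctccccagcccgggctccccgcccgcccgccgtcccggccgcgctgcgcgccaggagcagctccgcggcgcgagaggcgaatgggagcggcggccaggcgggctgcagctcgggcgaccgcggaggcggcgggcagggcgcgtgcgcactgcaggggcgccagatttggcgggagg

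The distal Runx1 stretch holds CAGGTG, an E-box, and CAACTG, which has the MYB letters and reads as the E-box CAGTTG on the other strand. The proximal stretch holds 1 ETS match, and neither the Myb window nor the printed Bcl11b stretch holds any of the letters searched. The rest of the 250-base Bcl11b window, not printed because it runs into an annotated exon, holds 1 TCF/LEF match and 1 MYB match. Both are counted in the numbers of windows that follow. Over the 17 windows of 250 bases that RefSeq gives for 9 of the 10 factors (Ets1 had no entry), both strands were searched for the motif of each family. The E-box letters CAGNTG stood in 4 of the 17 windows (44.8% of the 32851 windows of all genes), the ETS letters CCGGAA in 4 (12.0%), the TCF/LEF letters CTTTGA in 2 (13.8%) and the MYB letters CAACNG or TAACNG in 6 (43.1%). The first 2 Lef1 windows overlap and hold the same MYB match, so the 6 windows stand for 5 factors and not for 6 separate sites. The RUNX letters TGTGGT (14.0% of all windows), the GATA letters AGATAA (9.99%) and the Ikaros letters TGGGAA (21.6%) stood in 0 of the 17. E-box and MYB letters can cover the same bases, as in the distal Runx1 stretch, and were then counted for both. These matches describe letters in short windows and say nothing about binding, and the RNA data do not separate transcripts of the distal and proximal Runx1 start sites.

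The library facts that touch the results were as follows. The scale recovered from the RPKM steps was between 32900253 and 50401359 reads per library, and the 10 factors had between 3011 reads (Gata3) and 144467 reads (Tcf7) in a library, so counting error is small beside the spread between libraries. Sel1l, the targeted gene, read 1.83, 1.66, 1.61 and 1.57 RPKM in the control libraries, given here and below in the order of replicates 1 to 4, and 0.917, 0.876, 1.32 and 1.23 RPKM in the CKO libraries (log2 fold change -0.59, limma adjusted p = 0.0327). The part of the gene that is deleted is not given in the sources used here, so the level checks the labels without measuring how complete the deletion was. CKO replicates 3 and 4 retained more Sel1l RNA than replicates 1 and 2 and stood apart from them on the second principal component (22.1% of the variance, with 48.4% on the first, which separated the genotypes). The labels name no batch, and replicates 1 and 2 are therefore set beside replicates 3 and 4 below only as a split seen in the values. All 11 markers of DN3 cells were measured above the minimum, with control means of 296 RPKM for Thy1, 70.4 for Rag1, 27.3 for Ptcra and 17.5 for Il2ra. Of the co-receptors of later stages, Cd4 was at 0.138 RPKM in control libraries. Cd8a was higher, at 1.10 RPKM in control against 1.27 RPKM in Sel1l CKO libraries, and Cd8b1 was at 0.918 against 1.02 RPKM. Summed over the list, the DN3 markers ranged from 591 to 703 RPKM in control and from 535 to 560 RPKM in Sel1l CKO libraries, so that the sums did not overlap. Thy1 was the largest part of the sum, and its own groups overlapped. Negative fold changes were seen for 10 of the 11, against 3087 of the 6512 genes tested, with 0 past the test. Only 3 markers (Cd3e, Cd3g and Il7r) lay below every control library, where 5.59% of all genes tested did. In these bulk samples, fewer cells of a type and less RNA per cell cannot be told apart.

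Of the 6512 genes tested across the table, 5.28% passed an adjusted p of 0.05 (limma, Benjamini-Hochberg over all genes tested), 4.27% higher and 1.01% lower in Sel1l CKO. Of the 10 factors, 0 passed in either direction, 4 had positive and 6 negative fold changes, and their median log2 fold change was -0.038 against 0.01 over all genes tested. With 1 library left out this median ranged from -0.10 (without CKO replicate 2) to 0.0098 (without CKO replicate 3), with 0.00064 without CKO replicate 4, so its sign rests on single libraries. An unadjusted p under 0.05 was reached by 3 factors (Bcl11b, Ets1 and Runx1), all lower, where 20.8% of all genes tested reached it in either direction. Non-overlapping groups were seen for 2 factors, both below the controls, where 5.59% of all genes tested lay below every control library and 9.15% above. By limma voom on the recovered reads, 0 factors passed and 3 reached an unadjusted p under 0.05.

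**Figure D1:**
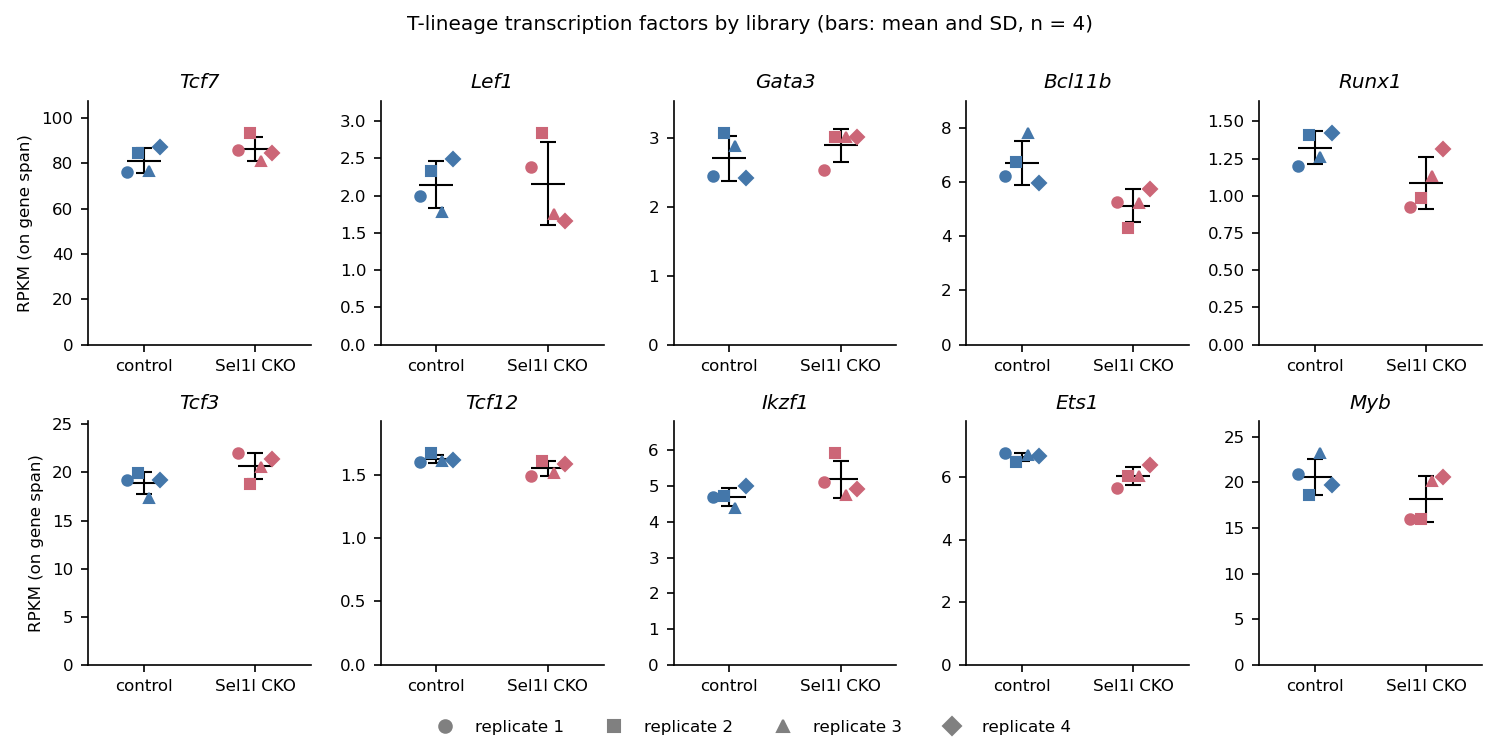
RPKM of each of the 10 factors by library (y axis, gene span scale, starting at 0; x axis, genotype), with symbols for the replicate number and black bars for the mean and SD of 4 libraries. The Sel1l CKO points of Bcl11b (4.31 to 5.74 RPKM) and Ets1 (5.66 to 6.38 RPKM) lie below all control points, and those of the other 8 factors overlap the controls.

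Levels are compared between genes on the exon scale, on which the deposited values, computed on the whole gene with introns, were rescaled to the summed length of the annotated exons. In control DN3 cells Tcf7 was by far the most abundant factor, at 947 ± 63.9 exon-scale RPKM (SD, n = 4), followed by Tcf3 at 113 ± 6.6 and Ets1 at 95.5 ± 1.9, and the ranges of these 3 did not overlap. Myb (83.0 ± 8.0), Bcl11b (76.8 ± 9.3) and Ikzf1 (71.5 ± 3.8) formed a middle group, in which the ranges of neighbours overlapped. The upper end of Myb, at 93.5, also reached into the range of Ets1, which began at 92.8. The lowest levels were those of Tcf12 (28.1 ± 0.6), Lef1 (27.8 ± 4.1), Runx1 (24.7 ± 2.1) and Gata3 (22.4 ± 2.7). The ranges of these 4 overlapped from neighbour to neighbour, except that Tcf12, from 27.7 to 29.0, lay wholly above Runx1 and Gata3. The exon length sums all annotated exons (2625 bases for Tcf7, 15529 for Tcf12), and which transcripts the cells expressed was not measured. These ranges hold the spread between libraries and not the error of that length, so the order of close levels is uncertain. Tcf12 and Ets1 varied least between control libraries (coefficient of variation 2.1% and 1.9%), and Lef1 varied most (14.8% in control and 25.9% in Sel1l CKO libraries).

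TCF-1 and LEF-1 are related high mobility group proteins that bind the same DNA letters. Tcf7 (chr11:52252371-52283014, minus strand, 12 exon blocks) was at 76.2, 84.5, 76.8 and 87.1 RPKM on the gene span in control and at 85.7, 93.5, 81.0 and 84.8 RPKM in Sel1l CKO libraries. The groups overlapped, and the CKO mean was 106% of the control mean (log2 fold change 0.09, SE 0.07, limma adjusted p = 0.501). The 95% interval, not corrected for the number of factors, ran from -0.07 to 0.25 on the log2 scale. Whether the 2 groups were equal was not tested.

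Lef1 (chr3:131110471-131224356, plus strand, 14 exon blocks) was at 1.99, 2.33, 1.78 and 2.48 RPKM in control and at 2.39, 2.84, 1.75 and 1.66 RPKM in Sel1l CKO libraries. The CKO libraries lay at both ends of the range, with replicates 1 and 2 high and replicates 3 and 4 low, and the fold change was close to 0 (log2 fold change -0.01, 95% interval -0.41 to 0.38, limma adjusted p = 0.976). Within replicates 1 and 2 the difference was 0.26 and within replicates 3 and 4 it was -0.29, both as log2 fold changes of CKO over control. The test of the difference between these values gave an unadjusted p of 0.0464 and an adjusted p of 0.246 in limma over all genes tested, so the opposite signs did not pass the correction. The sign of the Lef1 value is also set by the scaling, since it changed with median-of-ratios scaling.

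The log2 difference between Tcf7 and Lef1 within a library does not depend on that library's scaling. It was 5.19 ± 0.12 in control and 5.29 ± 0.28 in Sel1l CKO libraries (SD, n = 4, gene span scale), a change of 0.10 with an exact permutation p of 0.514, two-sided over the 70 assignments of the libraries, with values of -0.11 for replicates 1 and 2 and 0.31 for replicates 3 and 4 taken alone. The pair was 1 of 5 compared, and its adjusted p was 0.514.

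GATA3 is a zinc finger protein needed from the first thymic stages and again at β-selection. Gata3 (chr2:9857078-9890034, minus strand, 10 exon blocks) was at 2.45, 3.08, 2.89 and 2.42 RPKM in control and at 2.54, 3.01, 3.02 and 3.02 RPKM in Sel1l CKO libraries. All 4 CKO libraries lay within the range of the controls (log2 fold change 0.10, 95% interval -0.13 to 0.32, limma adjusted p = 0.600). Gata3 overlaps 4930412O13Rik on the opposite strand, and whether the counting used the strand is not given in the sources used here.

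BCL11B is the zinc finger protein whose onset marks commitment to the T lineage. Bcl11b (chr12:107910403-108003602, minus strand, 4 exon blocks) was at 6.24, 6.73, 7.81 and 5.97 RPKM in control and at 5.25, 4.31, 5.22 and 5.74 RPKM in Sel1l CKO libraries. Every CKO library lay below every control library, and the closest were 5.74 and 5.97 RPKM. The log2 fold change was -0.38 (SE 0.11, 95% interval -0.62 to -0.13), the smallest p of the 10 factors (unadjusted p = 0.00728, limma), which did not pass the correction (limma adjusted p = 0.0924). Taken alone, replicates 1 and 2 gave a log2 fold change of -0.44, and replicates 3 and 4 gave -0.31. The exact permutation p was 0.0286, the smallest that 4 against 4 libraries can give.

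RUNX1 is the DNA-binding subunit of core binding factor, which works as a dimer with CBFβ. Runx1 (chr16:92601466-92826149, minus strand, 9 exon blocks) was at 1.199, 1.406, 1.259 and 1.423 RPKM in control and at 0.923, 0.984, 1.13 and 1.32 RPKM in Sel1l CKO libraries. CKO replicates 1 to 3 lay below all controls, and replicate 4 lay among them. The log2 fold change was -0.27 (SE 0.11, 95% interval -0.53 to -0.01, limma adjusted p = 0.226), -0.41 within replicates 1 and 2 and -0.12 within replicates 3 and 4. Cbfb, its partner, was at 3.197 ± 0.134 RPKM in control libraries against 3.314 ± 0.353 RPKM in Sel1l CKO (adjusted p = 0.786).

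The E proteins E2A and HEB form dimers that bind the E-box. Tcf3 (chr10:80409514-80433647, minus strand, 21 exon blocks) was at 19.2, 19.9, 17.3 and 19.2 RPKM in control and at 22.02, 18.84, 20.58 and 21.35 RPKM in Sel1l CKO libraries. CKO replicate 2 fell among the controls and the other 3 CKO libraries lay above them (log2 fold change 0.13, 95% interval -0.03 to 0.29, limma adjusted p = 0.347). Tcf12 (chr9:71842688-72111871, minus strand, 24 exon blocks) was at 1.60, 1.67, 1.60 and 1.62 RPKM in control and at 1.49, 1.61, 1.51 and 1.59 RPKM in Sel1l CKO libraries. Its levels lay in a narrow band in both genotypes, and the groups overlapped (log2 fold change -0.06, 95% interval -0.21 to 0.08, limma adjusted p = 0.592). Tcf4, the third E protein gene, was under the minimum at 0.155 ± 0.0094 RPKM in control libraries against 0.128 ± 0.0125 RPKM in Sel1l CKO, below every control.

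The Id inhibitors moved far more between libraries than the E proteins did. Id3 was at 16.5, 14.2, 16.6 and 26.5 RPKM in control and at 16.003, 15.142, 8.071 and 8.288 RPKM in Sel1l CKO libraries, so that only CKO replicates 3 and 4 lay below the controls (log2 fold change -0.66, limma adjusted p = 0.208). Id2 was at 5.58, 5.83, 21.6 and 13.2 RPKM in control and at 3.84, 5.21, 8.91 and 10.4 RPKM in Sel1l CKO libraries, with replicates 3 and 4 above replicates 1 and 2 in both genotypes (log2 fold change -0.57, adjusted p = 0.506). Id1 was at 1.06, 0.974, 3.75 and 8.27 RPKM in control and at 0.273, 0.393, 0.733 and 0.786 RPKM in Sel1l CKO libraries, below every control (log2 fold change -2.05, SE 0.63, adjusted p = 0.108). Replicates 3 and 4 were thus the higher pair for Id1 and Id2 in both genotypes, while for Id3 they were the lower pair in Sel1l CKO.

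E protein and Id levels were therefore also compared within each library, as log2 Tcf3 or Tcf12 minus log2 Id3 or Id2. The Tcf3 to Id3 difference was 0.22, 0.49, 0.06 and -0.47 in control and 0.46, 0.31, 1.34 and 1.35 in Sel1l CKO libraries. CKO replicates 3 and 4 stood above all controls and CKO replicates 1 and 2 among them, and the change of 0.79 had an exact permutation p of 0.0857 and an adjusted p of 0.429 over the 5 pairs. It amounted to 0.034 within replicates 1 and 2 and to 1.55 within replicates 3 and 4. The Tcf12 to Id3 difference changed by 0.60 (exact permutation p = 0.200, adjusted p = 0.464), with -0.10 in replicates 1 and 2 against 1.30 in replicates 3 and 4. Against Id2, the change was 0.70 for Tcf3 and 0.51 for Tcf12 (exact permutation p = 0.314 and 0.371, both with an adjusted p of 0.464), and it was positive within both pairs of replicates. Control replicate 3, the library with the most Id2, set much of the size, since without it the change was 0.29 for Tcf3 and 0.13 for Tcf12, and without CKO replicate 1 it was 0.42 and 0.27.

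**Figure D2:**
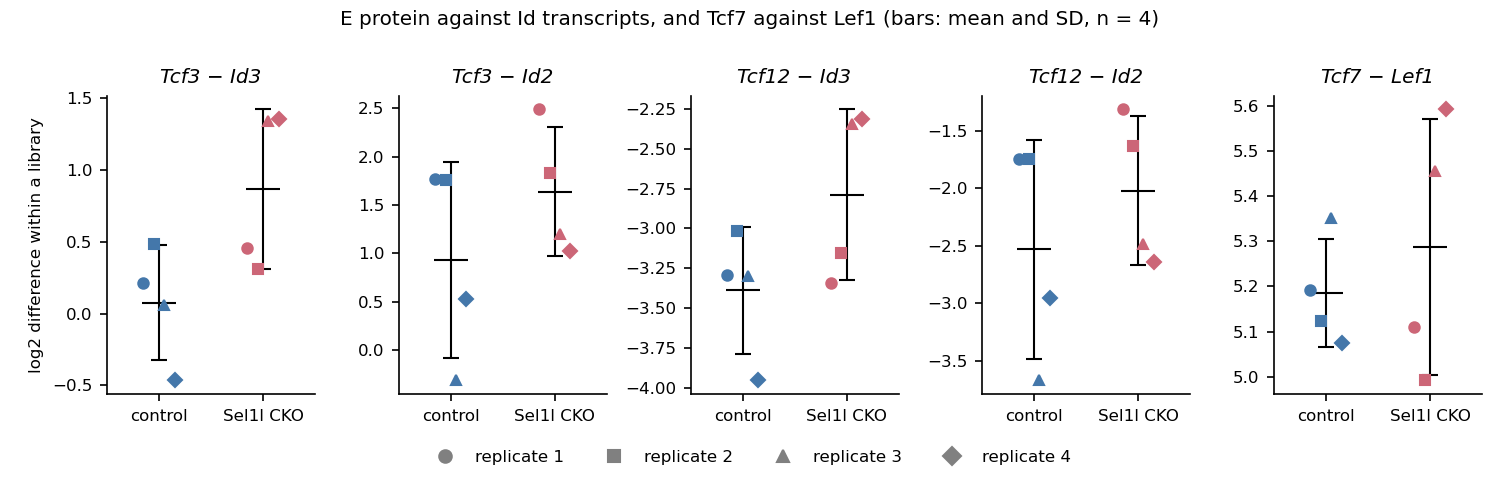
Log2 difference between 2 genes within each library (y axis, log2 of RPKM + 0.1 on the gene span; x axis, genotype), for the 4 E protein to Id pairs and for Tcf7 to Lef1, with black bars for the mean and SD of 4 libraries; each panel has its own scale that does not start at 0. For Tcf3 to Id3, CKO replicates 3 and 4 lie at 1.34 and 1.35 and the other 6 libraries between -0.47 and 0.49.

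Ikaros is a zinc finger protein that restrains Notch targets and proliferation in thymocytes. Ikzf1 (chr11:11685003-11772926, plus strand, 10 exon blocks) was at 4.682, 4.725, 4.390 and 5.005 RPKM in control and at 5.12, 5.92, 4.76 and 4.93 RPKM in Sel1l CKO libraries. CKO replicates 1 and 2 lay above the controls and replicates 3 and 4 among them (log2 fold change 0.13, 95% interval -0.05 to 0.32, limma adjusted p = 0.381).

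ETS1 is the founding member of the ETS family and acts at T cell receptor gene enhancers. Ets1 (chr9:32636221-32757820, plus strand, 11 exon blocks) was at 6.77, 6.47, 6.72 and 6.66 RPKM in control and at 5.66, 6.04, 6.04 and 6.38 RPKM in Sel1l CKO libraries. Every CKO library lay below every control, and the closest were 6.38 and 6.47 RPKM. The mean was 90.6% of that in control, with a log2 fold change of -0.14 (SE 0.06, 95% interval -0.28 to -0.01, limma adjusted p = 0.219), -0.18 within replicates 1 and 2 and -0.11 within replicates 3 and 4. The exact permutation p was 0.0286, again the smallest the design allows.

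MYB is needed for β-selection and for the survival of thymocytes. Myb (chr10:21124935-21160984, minus strand, 15 exon blocks) was at 20.9, 18.6, 23.2 and 19.7 RPKM in control and at 15.97, 16.04, 20.21 and 20.56 RPKM in Sel1l CKO libraries. CKO replicates 1 and 2 lay below all controls, and replicates 3 and 4 lay among them. The log2 fold change was -0.18 (SE 0.11, 95% interval -0.43 to 0.06, limma adjusted p = 0.377), with -0.30 within replicates 1 and 2 and -0.07 within replicates 3 and 4.

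**Figure D3:**
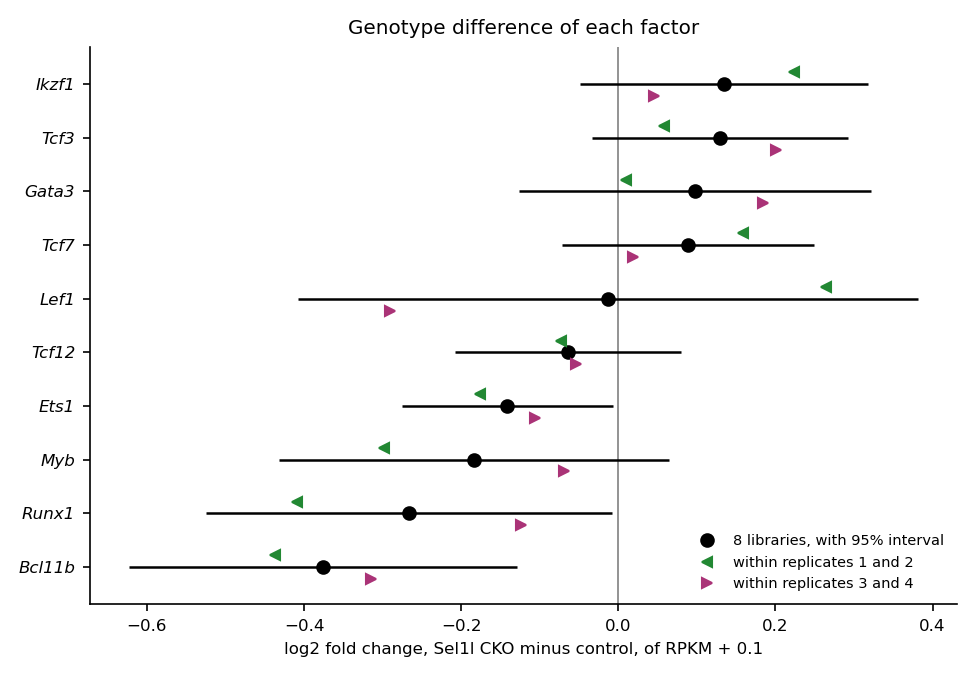
Log2 fold change (x axis, Sel1l CKO minus control, of RPKM + 0.1) of each factor (y axis), with black points and 95% limma intervals for all 8 libraries and triangles for replicates 1 and 2 or 3 and 4 alone. The intervals of Bcl11b (-0.62 to -0.13), Ets1 and Runx1 leave out 0 before correction, and the triangles of Lef1 lie on opposite sides of it.

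The fold changes of Runx1, Myb and Bcl11b were larger in size within replicates 1 and 2, whose CKO libraries held less Sel1l RNA. The same held for Ets1, Tcf12, Tcf7 and Ikzf1, of which Tcf7 (0.16 against 0.02) and Ikzf1 (0.22 against 0.05) had positive fold changes. Lef1, Gata3 and Tcf3 went the other way. Without CKO replicates 3 and 4, an alternative chosen after seeing the data, Runx1, Myb and Bcl11b were lower and passed the test. Their log2 fold changes were -0.43 for Runx1 (limma adjusted p = 0.0291), -0.36 for Myb (adjusted p = 0.0395) and -0.47 for Bcl11b (adjusted p = 0.0429). In the same fit 20.4% of the 6514 genes tested passed in either direction, 703 higher and 625 lower, while all 3 factors were lower. Because the fit was chosen after seeing the data, the 3 of 10 is given as a description. Without CKO replicates 1 and 2 instead, 0 factors passed and 5.53% of all genes did. The test of whether the genotype difference itself differed between replicates 1 and 2 and replicates 3 and 4 gave adjusted p values of 0.407 for Runx1, 0.387 for Myb and 0.761 for Bcl11b (limma), so a contrast between the pairs of libraries was not shown for any of them. The part of the remaining Sel1l RNA in these differences was not tested.

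Within genotypes, Lef1, Tcf7 and Ikzf1 varied together and opposite to Bcl11b and Myb. After subtracting each genotype mean, the Pearson correlation over the 8 libraries, which share scaling and processing, was 0.91 between Lef1 and Ikzf1, 0.86 between Tcf7 and Ikzf1 and 0.85 between Tcf7 and Lef1. Ets1 and Myb (0.72) and Bcl11b and Myb (0.66) were the next pairs. Between Lef1, Tcf7 or Ikzf1 on one side and Bcl11b or Myb on the other, all 6 values were negative, with -0.94 for Lef1 and Myb, -0.86 for Bcl11b and Ikzf1, -0.79 for Lef1 and Bcl11b, -0.76 for Ikzf1 and Myb, -0.72 for Tcf7 and Myb and -0.64 for Tcf7 and Bcl11b. Of the other 5 factors, Tcf12 had the signs of the first side (Tcf7 0.62, Ikzf1 0.52, Lef1 0.28, Bcl11b -0.26 and Myb -0.17). Ets1 had the signs of the second (Myb 0.72, Bcl11b 0.17, Lef1 -0.56, Tcf7 -0.23 and Ikzf1 -0.16). Gata3, Runx1 and Tcf3 had the signs of neither side throughout. Tcf12 was also positive with Gata3 (0.61), Runx1 (0.44) and Ets1 (0.40). Runx1 was highest with Ets1 (0.60), and no value of Tcf3 was larger than 0.32 in size. The largest of these values are the extremes of 45 pairs over few libraries, and all are given as a description. Part of the pattern is the split among CKO libraries, in which replicates 3 and 4 differed from replicates 1 and 2 by -0.58 for Lef1, 0.35 for Myb and 0.33 for Runx1 on the log2 scale.

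**Figure D4:**
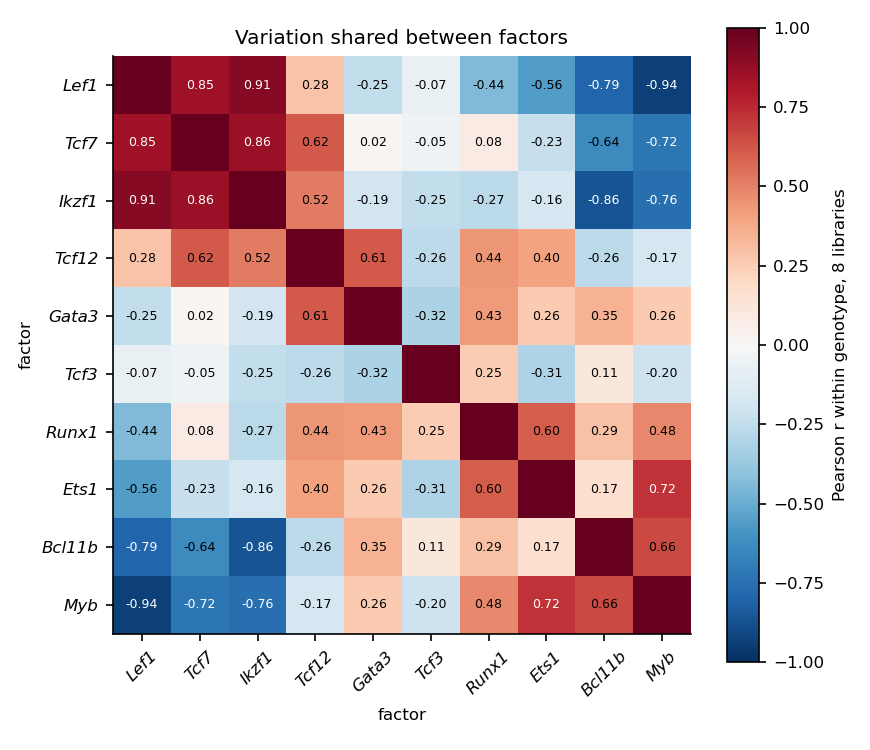
Pearson r between the 10 factors (both axes) over the 8 libraries after each genotype mean was subtracted, with color and printed value giving r from -1 to 1. Lef1, Tcf7 and Ikzf1 form a block of 0.85 to 0.91 that is negative against Bcl11b and Myb (-0.64 to -0.94).

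Across all 8 libraries, genotype difference included, the tested genes most like Bcl11b were Stk11 (Pearson r 0.985), Cnot8 (0.9802) and Spint2 (0.9796). Those most like Ets1 were Appl1 (0.962), Eif4g3 (0.956) and Mterf3 (0.955), and those most like Runx1 were Xaf1 (0.979), Usp21 (0.960) and Irf9 (0.959). None of these 9 genes passed the test between genotypes, with limma adjusted p values from 0.0776 for Mterf3 to 0.228 for Irf9. They are the highest of 6512 values over 8 libraries and are given as a description.

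The wider network of the 10 factors was described from lists of other genes, none of which had a member past the test in the fit across all genes. Of the 22 relatives in the same DNA-binding families, 8 were tested, 6 of them with positive fold changes, and their median log2 fold change was 0.064. The smallest p was that of Mybl2, a cell cycle MYB protein, at 3.31 ± 0.37 RPKM in control libraries against 4.002 ± 0.65 RPKM in Sel1l CKO (limma adjusted p = 0.285). Among those under the minimum, Spi1, the myeloid ETS factor PU.1, was near 0 in both genotypes (0.0112 and 0.0122 RPKM), and Bcl11a, the B lineage and progenitor relative of Bcl11b, was at 0.0743 and 0.0395 RPKM. Runx3, the paralog of Runx1 that acts in later T cells, was at 0.807 ± 0.089 RPKM in control libraries against 1.003 ± 0.042 RPKM in Sel1l CKO with groups that did not overlap, and it is named after its values were seen.

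Of the 23 cofactors and inhibitors in the table, 14 were tested, and 11 of them had negative fold changes, with a median of -0.038. Id1 had the smallest p. The corepressors and chromatin partners Tle3, Tle5, Chd4, Hdac1, Hdac2 and Mta2 lay between -0.05 and -0.01 on the log2 scale, and β-catenin (Ctnnb1) was at 12.4 ± 1.3 RPKM in control libraries against 12.6 ± 1.8 RPKM in Sel1l CKO. Ldb1, the adaptor that joins LIM-only proteins with GATA and E protein complexes, was below every control in Sel1l CKO (40.8 ± 3.3 against 34.1 ± 4.1 RPKM, adjusted p = 0.171).

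Of 17 regulators that are switched off around commitment, 1 was tested, and the other 16 were under the minimum. Mycn, the gene tested, was at 2.42, 2.56, 5.33 and 3.53 RPKM in control and at 1.470, 1.5002, 2.084 and 2.21 RPKM in Sel1l CKO libraries (log2 fold change -0.84, limma adjusted p = 0.0892), below every control. Their summed level ranged from 4.78 to 8.47 RPKM in control and from 2.80 to 4.32 RPKM in Sel1l CKO libraries. Most of the sum was Mycn and Nfe2, the latter at 1.04 ± 0.11 RPKM in control libraries against 0.694 ± 0.14 RPKM in Sel1l CKO.

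Of 38 other transcription factors and Notch receptors of thymocyte development, 20 were tested, 4 with positive and 16 with negative fold changes, and the median was -0.14. Ahr, the aryl hydrocarbon receptor, had the smallest p, at 1.27 ± 0.20 RPKM in control libraries against 0.808 ± 0.20 RPKM in Sel1l CKO (log2 fold change -0.60, limma adjusted p = 0.0768). Notch3, Stat5a and Gfi1 also lay below every control, 4 genes of 20 in all, where 5.59% of all genes tested did.

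Of the 26 measured T-lineage genes that textbooks name as targets of these factors, 18 were tested, 15 with negative fold changes, and the median log2 fold change was -0.25. An unadjusted p under 0.05 was reached by 9 of the 18, all lower, where 20.8% of all genes tested reached it in either direction. Below every control lay 6 (5.59% of all genes tested), namely Cd3e, Cd3g, Cd247, Il7r, Dntt and Notch3. Notch3 is also counted among the other factors above. Cd3e, a signaling chain of the pre-TCR, had the smallest p, at 36.3, 42.0, 40.8 and 38.3 RPKM in control and at 30.6, 28.5, 33.6 and 34.2 RPKM in Sel1l CKO libraries (log2 fold change -0.31, SE 0.08, limma adjusted p = 0.0578). Il2ra, which encodes CD25, on which the cells were sorted, was at 17.5 ± 0.69 RPKM in control libraries against 19.6 ± 2.5 RPKM in Sel1l CKO (adjusted p = 0.375). Of the 11 DN3 markers, 9 are also in this list (Cd3e, Cd3g, Il2ra, Il7r, Notch1, Ptcra, Rag1, Rag2 and Thy1), so it and the lower sum of the DN3 markers given above are not independent.

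**Figure D5:**
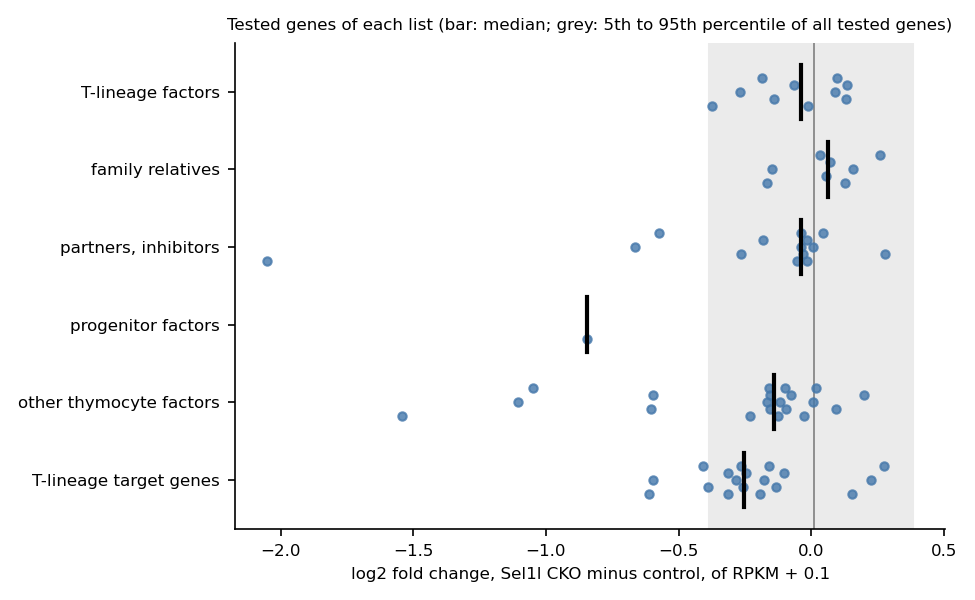
Log2 fold change (x axis, Sel1l CKO minus control, of RPKM + 0.1) of the tested genes of each list (y axis, points with vertical jitter), with a black bar at the list median and a grey band from the 5th to the 95th percentile of all 6512 genes tested. The medians lie at -0.038 for the 10 factors, 0.064 for relatives, -0.038 for partners and inhibitors, -0.14 for other thymocyte factors and -0.25 for target genes, and the progenitor list has 1 point at -0.84.

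Markers of other cells that the sort could hold were read beside these values. The study's lineage antibodies against CD11b, CD11c, Ter119, Gr-1, CD49b and B220 are directed at B, myeloid, NK and erythroid cells. Of the B lineage markers, Cd79b averaged 9.07 ± 0.90 RPKM in control libraries against 6.89 ± 1.26 RPKM in Sel1l CKO, below every control (limma adjusted p = 0.129), while Pax5 was near 0, at 0.000385 RPKM in control and listed at 0 in all 4 CKO libraries. Summed myeloid markers ranged from 16.6 to 19.5 RPKM in control and from 12.4 to 15.3 RPKM in Sel1l CKO libraries, mostly Cst3, with Csf1r and Itgam near 0. The 2 tested, Lyz2 (2.26 ± 0.15 against 1.25 ± 0.41 RPKM, limma adjusted p = 0.0611) and Cst3 (limma adjusted p = 0.0751), were both below every control. The other 7 were under the minimum and went in both directions. Innate lymphoid markers summed to between 26.4 and 33.4 RPKM in control and between 19.0 and 26.4 RPKM in Sel1l CKO libraries, nearly all of it Gzma, while Klrb1c was listed at 0 in 3 of the 4 control libraries. Double-positive stage markers overlapped between genotypes (8.04 to 32.6 and 6.88 to 19.9 RPKM), as did γδ T cell (4.77 to 5.24 and 3.202 to 6.528 RPKM) and erythroid markers (0 to 1.12 and 0.465 to 2.66 RPKM). The largest control means of the double-positive list were those of Cd69 (6.83 RPKM) and Nr4a1 (6.73 RPKM). The γδ sum rests on 4 of 8 listed genes, without Trdc, Trgc1 and Trgc2. Of these 4, Blk was below every control (0.615 against 0.307 RPKM) and Sox13 was higher on average (1.54 against 1.80 RPKM). Of the epithelial markers, which did not overlap (3.27 to 5.14 and 2.06 to 2.42 RPKM), Epcam was lower in Sel1l CKO and passed the test (log2 fold change -0.95, limma adjusted p = 0.00273). Epcam made up nearly all of that sum. The epithelial genes Foxn1, Krt5, Krt8 and Psmb11 had means under 0.05 RPKM in both genotypes and were not lower in Sel1l CKO. Also under the minimum, Aire (0.178 RPKM in control against 0.114 RPKM in Sel1l CKO, overlapping) and Col1a1 (0.0549 against 0.0217 RPKM, below every control) were lower. The part of these markers in the lower levels of Bcl11b, Ets1 and the target genes was not tested.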

How the data were processed

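DN3 thymocytes were sorted into TRIzol. The authors made libraries with a stranded mRNA kit for paired-end sequencing, used STAR 2.5.2b for alignment to GRCm38 and HTSeq (2.7, as given) for counts on protein-coding genes, and ran DESeq2, per the study's methods and the submitters' processing notes. The deposited values are RPKM computed by the authors, 1 column per library, and 0 columns were left unused. On the gene spans of GENCODE M21 (GRCm38, 1-based coordinates), 75.8% of genes came out as whole reads within 0.02 reads, against 3.03% on exon length, so introns count as length. Recovered reads of 14837 genes sum to between 99.2% and 103.3% of the scale recovered per library. How the authors set that scale is not given in the sources used here, so it is close to, but not exactly, the reads counted.

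The log2 of RPKM + 0.1 was taken. Genes averaging 1 RPKM or more were tested with limma 3.58.1 in R 4.3.3 (moderated test with trend, genotype as the only term, two-sided, Benjamini-Hochberg, threshold 0.05). Fold changes are on the log2(RPKM + 0.1) scale, which understates changes of low genes. Single differences were tested by exact permutation over 70 assignments. Figures and promoter searches used Python 3.11.15, pandas 2.3.3, numpy 2.4.6 and matplotlib 3.10.9. The fit was tested on simulated data. RPKM values are not counts, so limma voom on recovered reads (genes averaging 10 reads or more) served only as an alternative. Replicates are separate libraries. The study gives n = 4 for this experiment, and its methods define n as independent biological replicates unless a legend says otherwise. The labels do not name the mouse or mice behind each library, and p values measure the spread between libraries.

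The members and lists were chosen with earlier results of these data known. All 10 members are named, with Id2, Id3, Tcf4, Spi1, Bcl11a, Sel1l and the 3 genes most like each of the 3 members with the smallest p. The gene of smallest p is named in the lists of relatives, partners and inhibitors, progenitor factors, other thymocyte factors and target genes. Lists of cell type markers did not follow this rule. Other genes are named as examples and were chosen after their values were seen. Alternatives were pseudocounts of 1 and 0.01, other filters, median-of-ratios scaling, no trend, array weights, a replicate block, a term for replicates 1 and 2 against 3 and 4, exon length, voom and leaving out each of the 8 libraries. 1 marker, and the sum of the B lineage list that holds it, is not reported here.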

Additional observations from a re-analysis of the deposited data

Results flagged for a closer look

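Gata3 in Sel1l CKO replicate 1 was at 2.54 RPKM, away from the other 3 CKO libraries, which lay between 3.01 and 3.02 RPKM. The gap made up 0.978 of the range of the group, above the 95% critical value of Dixon's test for 4 samples. It was 1 of 30 groups compared, where chance gives about 1.5. The low library lay within the range of the controls, from 2.42 to 3.08 RPKM, and the tight spacing of the other 3 CKO libraries sets the ratio.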

How the results depend on the processing

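No factor passed the test under any alternative with all 8 libraries or with any 1 library left out, with smallest adjusted p values (Bcl11b in each but the fit with no filter, where Ets1 gave 0.162) from 0.0578 with a term for replicates 1 and 2 against 3 and 4 to 0.199 without control replicate 3. Without Sel1l CKO replicates 3 and 4 together, chosen after seeing the data, 3 factors were lower, 703 genes passed higher and 625 lower. Lef1 changed sign between fits and ranged from -0.31 to 0.28 on the log2 scale, and the other 9 factors kept their sign in all 21. Genes lower numbered 66 in the reported fit, 182 with array weights (458 higher), 182 with the term for replicates 1 and 2 against 3 and 4, 121 on exon length, 156 by voom and 31 (without control replicate 3) to 75 (without CKO replicate 4) with 1 library left out, where leaving out each control replicate or CKO replicate 1 moved the count past 1.5 times. The replicate numbers do not pair the samples (correlations of deviations 0.16, 0.097, 0.44 and 0.0051 for numbers 1 to 4, with 2 of 8 samples closest to their own number). With the replicate block, 317 genes (4.87%) and 0 of the 10 factors passed, with 1 gene of the partners (Id1), 1 progenitor factor (Mycn), 3 other thymocyte factors (Hes1, Egr1 and Ahr) and 1 target gene (Cdkn1b). Counts of listed genes, 0 in the reported fit, were otherwise as follows, and the cause was not tested. The term for replicates 1 and 2 against 3 and 4 gave 1 partner, 1 progenitor factor, 3 other factors and 3 target genes, array weights gave 1 partner and 3 target genes, and a minimum of 0.1 RPKM gave 1 other factor (Bcl6). Voom gave 2 other factors (Bcl6 and Ahr), and leaving out 1 library gave 1 target gene (Ptcra, without CKO replicate 1) or 1 other factor (Ahr, without CKO replicate 3). Without CKO replicates 3 and 4 there were 2 relatives, 2 partners, 1 progenitor factor, 2 other factors and 7 target genes, and without CKO replicates 1 and 2 there were 1 partner (Id3) and 1 target gene (Ptcra). The Tcf12 to Id3 and Tcf7 to Lef1 log2 differences turned to -0.10 and -0.11 within replicates 1 and 2. The Tcf3 to Id3 difference was 0.034 there and 1.55 within replicates 3 and 4, where Tcf12 to Id3 was 1.30. The factors had at least 3011 reads per library. Listed genes under 1 RPKM were not tested, and on gene spans a low RPKM can come from length as well as from few reads.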
